A study of Mus musculus with 22 samples.

Results

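A set of 9 secreted modulators of WNT signaling was followed in inguinal white adipose tissue (IWAT) beside a mammary tumor and in the opposite pad of the same mice. The set was given by gene symbol as Sfrp1, Sfrp2, Sfrp4, Sfrp5, Dkk2, Dkk3, Wif1, Wisp1 and Wisp2, and all 9 were found among the 23420 genes of the count table. All animals were female wildtype C57Bl/6 mice. The 5 lean mice had eaten regular chow and the 6 obese mice a high fat diet (HFD) for 16 weeks, after which E0771 breast cancer cells, a mouse line from the same strain, were injected with Matrigel and PBS into the left inguinal pad and Matrigel with PBS alone into the right pad. Both pads were taken 2 weeks later, which gave 5 control and 5 tumor-associated IWAT libraries from lean mice and 6 of each from obese mice. Each library was one pad of one mouse, and libraries are named here by the number in their labels. That number was taken as the mouse within a diet, which the labels do not say in words. The authors reported larger tumors in the obese than in the lean mice. Diet and tumor size therefore cannot be told apart in comparisons of tumor-associated IWAT between diets, or of tumor changes between diets. The control pads came from the same tumor-bearing mice, so the same holds for comparisons of control IWAT between diets. At dissection the inguinal lymph node was removed and the material bordering the tumor was discarded; RNA of E0771 cells that might remain cannot be told apart from RNA of the host strain by gene counts.

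WNT ligands are secreted glycoproteins that bind Frizzled receptors with Lrp5 or Lrp6 as co-receptors and, in the canonical branch, stabilize beta-catenin. In adipose tissue WNT signaling is known for holding precursor cells back from becoming fat cells. The proteins studied here act outside the cell. The secreted frizzled-related proteins (Sfrp) and Wif1 bind the ligands themselves, the Dickkopf protein Dkk2 binds Lrp5 and Lrp6, Dkk3 is a divergent Dickkopf, and Wisp1 and Wisp2 (now Ccn4 and Ccn5) are matricellular proteins of the CCN family named for their induction by WNT1. Sfrp5 and Wisp1 have been described as adipokines.

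The libraries held 5759775 to 8598108 counts on genes. Levels are given as CPM, counts scaled by the normalized library total. A gene was called changed at an adjusted p under 0.05 in edgeR's quasi-likelihood test, fitted once to all 22 libraries and adjusted by Benjamini-Hochberg over the 14458 genes that passed the filter on low counts; all 9 members passed it. On the first principal component, which held 45.7% of the variance of log2 CPM, tumor-associated IWAT of obese mice took values of 27.2 to 147.8 and the other 16 libraries values of -59.0 to 1.30. The farthest, from obese mice 4 (147.8) and 0 (107.7), also had the lowest summed level of 8 adipocyte markers, 1435 and 2481 CPM, against 9832 to 17352 CPM in obese control IWAT. Their summed level of 6 proliferation markers was the highest of all 22 libraries, at 1680 and 1252 CPM. The other obese tumor-associated libraries held 485 to 872 CPM of these markers. Obese control libraries 1 and 3 held summed lymphocyte marker levels of 475 and 442 CPM, against at most 115 CPM elsewhere, and obese control library 1 held 2333 CPM of skeletal muscle markers. Member calls that were lost without either pair of libraries are given both ways.

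Per length, as CPM per kb of exon, the order of the 9 genes differed by diet. In lean control IWAT Sfrp2 was highest at 18.8 ± 4.21 CPM per kb (SD, n = 5) and Dkk3 next at 10.2 ± 1.45. Wisp2, Sfrp1, Sfrp4 and Sfrp5 followed with overlapping ranges between 6.84 and 4.19 CPM per kb, and Wif1, Dkk2 and Wisp1 lay at 1.21, 1.12 and 0.700. In obese control IWAT Sfrp5 was highest at 142 ± 57.3 CPM per kb (SD, n = 6), apart from Wisp2 at 27.2 ± 13.9, followed by Sfrp2 at 9.88 ± 2.79. Beside the tumor every neighbor in the order overlapped, in both diets. The first 2 there were Sfrp2 at 46.2 ± 8.36 and Wisp2 at 20.8 ± 12.7 CPM per kb in lean mice, and Sfrp5 at 55.1 ± 36.0 and Wisp2 at 42.8 ± 21.0 in obese mice.

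**Figure D1:**
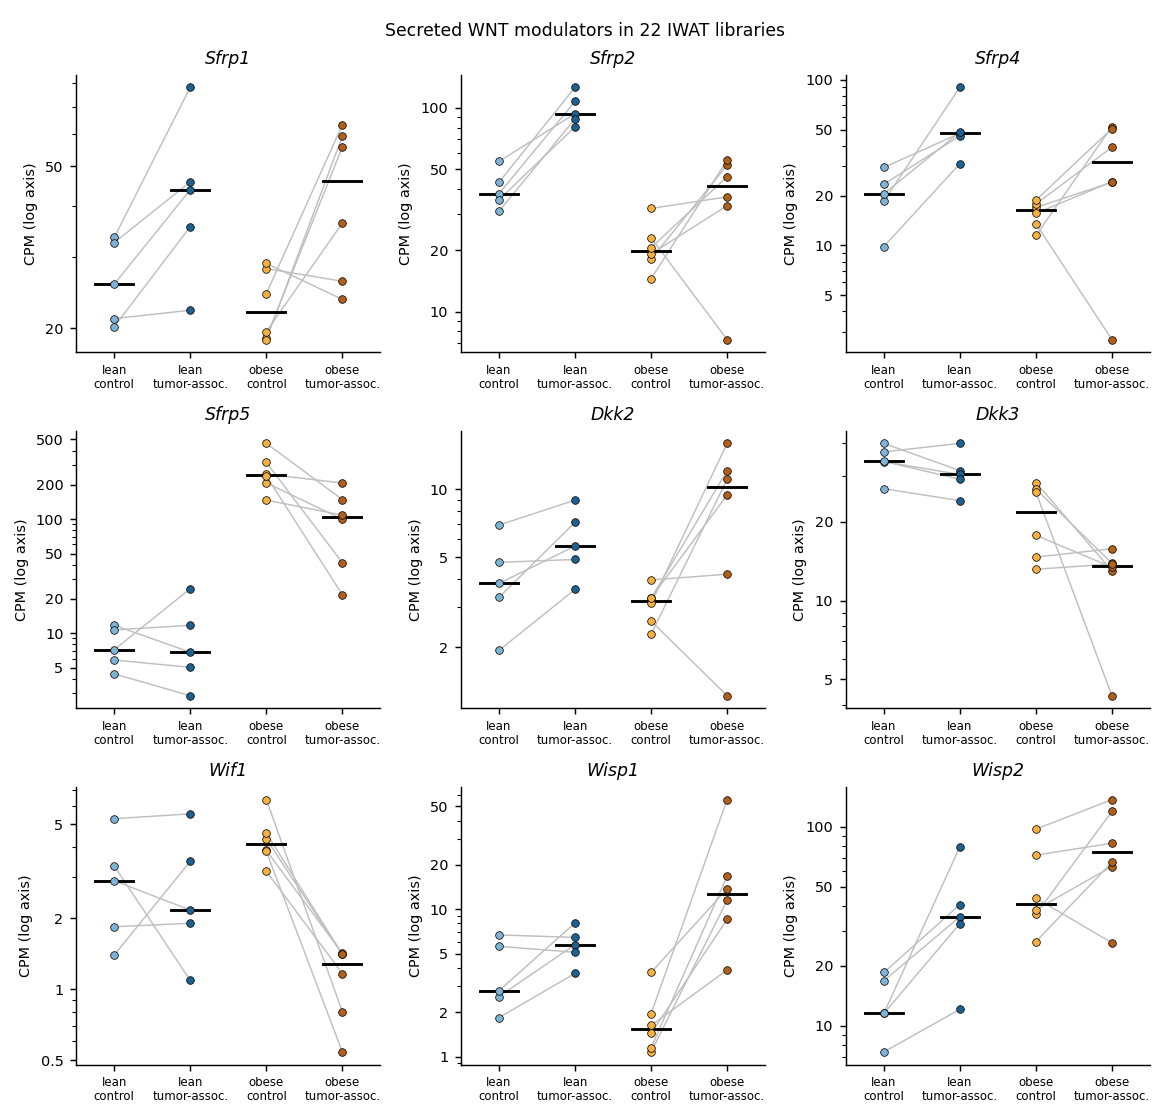
CPM of each member (log axis, a scale of its own per gene) in the 4 groups; points are libraries, black lines are group medians and gray lines join both pads of a mouse. Sfrp5 lies at or below 24.6 CPM in the lean libraries and at or above 21.8 CPM in the obese ones, and in obese mice Wisp1 is higher and Wif1 lower beside the tumor in all 6 pairs.

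The largest difference by diet was that of Sfrp5, which in control IWAT was 33.5-fold higher in obese than in lean mice. Sfrp2 and Dkk3 were called lower in obese mice in both pads, and Wisp2 higher in both. The calls of Sfrp2 and Dkk3 in control IWAT and of Wisp2 beside the tumor lay near the threshold (edgeR adjusted p = 0.0463, 0.0499 and 0.0495). Each of these was lost in 17 of 22 fits without 1 library, as given below. In control IWAT 2 members were called higher and 2 lower in obese mice, where 9.54% of all genes tested were called higher and 7.53% lower. In tumor-associated IWAT 3 were called higher and 3 lower, where 24.7% and 22.4% of all genes were.

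Sfrp5 (chr19:42197971-42202252, minus strand, GRCm38) and Sfrp2 (chr3:83766321-83774316, plus strand) belong to the same Sfrp subgroup and had called diet differences of opposite sign, so the 250 bases before their RefSeq start are shown (GRCm38.p6). Sfrp5 is read from chr19:42202253-42202502 on the minus strand and Sfrp2 from chr3:83766071-83766320 on the plus strand, both 5′ to 3′, with matches to the motifs searched in capitals:
Sfrp5: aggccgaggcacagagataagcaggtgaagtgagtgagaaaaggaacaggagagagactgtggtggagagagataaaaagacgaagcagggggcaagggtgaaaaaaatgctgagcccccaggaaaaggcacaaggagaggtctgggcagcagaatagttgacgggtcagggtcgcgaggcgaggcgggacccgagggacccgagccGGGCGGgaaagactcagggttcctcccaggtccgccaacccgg
Sfrp2: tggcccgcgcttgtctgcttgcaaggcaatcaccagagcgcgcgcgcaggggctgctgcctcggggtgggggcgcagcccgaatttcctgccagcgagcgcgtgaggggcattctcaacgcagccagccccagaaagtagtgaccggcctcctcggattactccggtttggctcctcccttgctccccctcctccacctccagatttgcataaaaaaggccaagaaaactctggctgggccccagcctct
Each of 5 motifs was searched on both strands here and in 32851 mouse promoters of this length. Sfrp5 held 1 match, to the GC box GGGCGG, starting 43 bases before the start site, and 32.7% of all promoters held that motif. Neither promoter held the TCF/LEF core CTTTGA, which was found in 13.8% of all promoters. The same was so of the TATA box TATAAA, found in 12.4%. It also held for the AP-1 motif TGANTCA, in 6.75% of promoters, and for the AGGTCA site of nuclear receptors, in 14.0%. GC content was 59.6% for Sfrp5 and 63.6% for Sfrp2, against a mean of 53.2% over all promoters. The promoter table held 4 of the 9 members.

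Sfrp5 measured 11.7, 7.17, 5.82, 4.40 and 10.7 CPM in control IWAT of lean mice 0, 2, 3, 6 and 9. In obese control IWAT it ranged from 147 to 462 CPM with a median of 244. The lowest obese control library was therefore above every lean one, and the log2 difference was 5.07 ± 0.60 (SE, edgeR adjusted p = 1.52e-05). Beside the tumor the lean libraries 0, 2, 3, 6 and 9 held 6.82, 24.6, 5.03, 2.83 and 11.7 CPM. The obese ones ranged from 21.8 CPM in mouse 4 to 207 in mouse 1, with a median of 104. Only mouse 4 reached into the lean range, and the diet difference there was 3.37 ± 0.56 (adjusted p = 0.000101), or 3.80 ± 0.46 without obese tumor-associated libraries 0 and 4. Both calls held with any 1 library left out. In whole tissue, fewer cells that express a gene and less RNA per cell cannot be told apart, here and for every gene below.

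Sfrp2 is overlapped by the antisense gene Gm26771, whose reads cannot be told apart from its own without a strand setting, which is not given in the sources used here. It measured 54.7, 43.2, 38.0, 31.1 and 35.4 CPM in lean control IWAT and between 14.5 and 32.1 CPM (median 19.9) in obese control IWAT. The ranges touched at 1 obese library, that of mouse 2, and the log2 difference was -0.93 ± 0.31 (adjusted p = 0.0463). Beside the tumor the lean libraries held 93.6, 126, 108, 88.4 and 80.8 CPM. The obese libraries ranged from 7.31 CPM in mouse 4 to 55.4 CPM in mouse 1 (median 41.3), all below the lean ones, and the difference was -1.37 ± 0.31 (adjusted p = 0.00134). Dkk3 (chr7:112116017-112159057) measured 39.8, 33.9, 34.0, 26.8 and 37.0 CPM in lean control and 13.2 to 28.2 CPM (median 21.8) in obese control IWAT, a log2 difference of -0.70 ± 0.24 (adjusted p = 0.0499). Beside the tumor it measured 31.4, 30.3, 29.1, 24.1 and 39.9 CPM in lean mice and 4.33 to 15.8 CPM (median 13.6) in obese mice without overlap, a difference of -1.32 ± 0.25 (adjusted p = 0.000295). The tumor-associated differences of both genes held with any 1 library left out. Those in control IWAT were lost in 17 of 22 such fits for each gene, with adjusted p up to 0.124 for Sfrp2 and 0.113 for Dkk3, and without the 2 lymphocyte-rich control libraries (-0.80, adjusted p = 0.164, and -0.55, adjusted p = 0.192).

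Wisp2 (chr2:163820861-163833146) measured 16.8, 11.5, 18.5, 7.39 and 11.5 CPM in lean control IWAT. Obese control IWAT held 26.5 to 97.1 CPM (median 41.02), all above the lean range, a 3.94-fold difference (log2 1.98 ± 0.45, adjusted p = 0.00517) that held with any 1 library left out. Beside the tumor the lean libraries held 35.3, 79.3, 40.6, 12.1 and 32.6 CPM and the obese ones 26.1 to 137 CPM (median 74.4), with overlap. That difference was 1.04 ± 0.43 (adjusted p = 0.0495), and 17 of 22 fits without 1 library lost the call, with adjusted p up to 0.118. Upper-quartile normalization gave 0.97 (adjusted p = 0.0663) and a fit to the tumor-associated libraries alone 1.03 (adjusted p = 0.0981).

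Sfrp1, Sfrp4 and Dkk2 were called different by diet in neither pad. Their log2 differences in control IWAT were -0.20 ± 0.29, -0.38 ± 0.43 and -0.42 ± 0.44, and beside the tumor -0.03 ± 0.28, -0.71 ± 0.42 and 0.58 ± 0.42. Without obese tumor-associated library 4, Dkk2 had a called difference beside the tumor (adjusted p = 0.0476). Wif1 and Wisp1 were not called in control IWAT (0.58 ± 0.37 and -1.06 ± 0.55) and are described with the tumor below. The diet comparisons share no library with each other, but they use both pads of the same mice and so are not independent. Each also shares its libraries with the tumor comparisons.

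The makeup of the Sfrp transcripts differed with diet. Of the summed per-length level of the 4 Sfrp members, Sfrp2 made up 55.5% ± 3.47 and Sfrp5 12.2% ± 3.64 in lean control IWAT (SD, n = 5). In obese control IWAT Sfrp5 made up 87.1% ± 4.54 and Sfrp2 6.80% ± 3.03 (SD, n = 6). Sfrp5's share ranged from 9.08% to 17.8% in the former and from 81.4% to 93.0% in the latter. A share also falls when another gene in the sum rises. The level of Sfrp2 itself was 18.8 ± 4.21 CPM per kb in lean and 9.88 ± 2.79 in obese control IWAT (SD). Beside the tumor Sfrp5's share was 6.58% ± 3.92 in lean and 57.6% ± 13.0 in obese mice, and Sfrp2's 63.5% ± 8.23 and 20.6% ± 8.05. The summed level in lean mice was 34.0 ± 7.43 CPM per kb in the control and 74.4 ± 21.7 in the tumor-associated pad, and in obese mice 161 ± 57.1 and 90.7 ± 47.2. By these means the sum was higher beside the tumor in lean mice and lower in obese mice. The lean ranges, 24.0 to 44.5 and 55.1 to 111 CPM per kb, did not overlap. The obese ranges did, at 93.5 to 262 in control and 20.9 to 157 in tumor-associated IWAT. The sum was not tested.

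**Figure D2:**
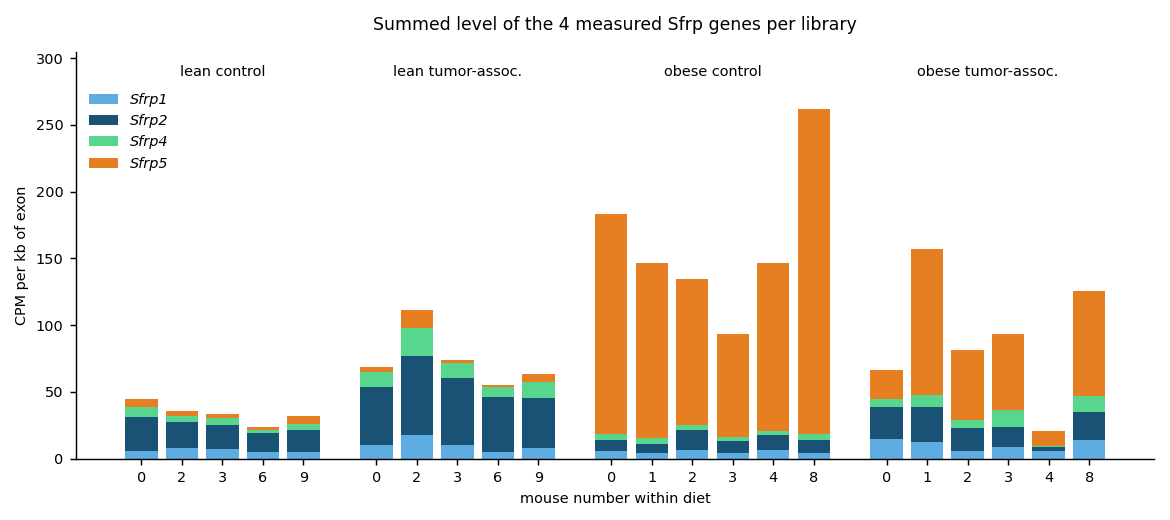
CPM per kb of exon of Sfrp1, Sfrp2, Sfrp4 and Sfrp5, stacked, in each of the 22 libraries, grouped by diet and pad with mouse numbers below. Sfrp2 is the largest segment in the lean libraries and Sfrp5 in the obese ones (mean share 87.1% in control and 57.6% in tumor-associated IWAT), except in obese tumor-associated library 0, where Sfrp2 is larger (36.7% against 32.9%).

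Beside the tumor of lean mice Sfrp2 rose 2.45-fold, and it was the 1 member called. This stood against 3.27% of all genes called higher and 0.913% called lower. Each of the 5 lean mice had more Sfrp2 in the tumor-associated than in the control pad, and the groups did not overlap (log2 1.29 ± 0.33, adjusted p = 0.0284). The call was lost in 7 of 22 fits without 1 library, each a lean one (adjusted p up to 0.111 without lean tumor-associated library 2), and with the mouse as a block (1.30, adjusted p = 0.0621). The median log2 change was 0.58 over the 9 members and 0.01 over all genes tested.

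Wisp2, Sfrp4, Sfrp1 and Dkk2 were also higher in the tumor-associated pad of 5 of 5 lean mice without passing the test. Wisp2 had a log2 change of 1.59 ± 0.46 (adjusted p = 0.0558). Its lean libraries are given above, and the highest was that of mouse 2 (79.3 CPM). The block gave 1.44 (adjusted p = 0.0352), DESeq2 1.59 (adjusted p = 0.00995) and a fit to the lean libraries alone 1.57 (adjusted p = 0.0378). The call was also gained without lean tumor-associated library 6 (adjusted p = 0.0166), obese control library 8 or obese tumor-associated library 4. Sfrp4 (chr13:19623104-19632994) measured 29.6, 18.5, 23.4, 9.86 and 20.5 CPM in control and 47.6, 90.3, 45.9, 31.1 and 48.3 CPM in tumor-associated IWAT of mice 0, 2, 3, 6 and 9. These groups did not overlap, and the change was 1.36 ± 0.45 (adjusted p = 0.103), called by DESeq2 (1.35, adjusted p = 0.0437), in the lean libraries alone (1.34, adjusted p = 0.0238) and without obese tumor-associated library 4 (adjusted p = 0.00848). Sfrp1 (chr8:23411502-23449632) measured 25.7, 33.4, 32.5, 21.1 and 20.2 CPM in control and 43.8, 78.2, 45.8, 22.1 and 35.5 CPM in tumor-associated IWAT, a change of 0.76 ± 0.30 (adjusted p = 0.185). Dkk2 had a change of 0.53 ± 0.45, Wisp1 of 0.58 ± 0.54, Sfrp5 of 0.33 ± 0.58, Wif1 of -0.03 ± 0.39 and Dkk3 of -0.15 ± 0.25, none called. Mouse 2 had the highest tumor-associated level of Sfrp1, Sfrp2, Sfrp4, Sfrp5, Wisp1 and Wisp2 among lean mice.

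The summed level of fibroblast markers was also higher beside the tumor of lean mice. The summed level of 10 fibroblast and progenitor markers was 5565 to 8093 CPM in lean control and 11125 to 16772 CPM in lean tumor-associated IWAT. Of the 10, Col1a1, Col3a1 and Thy1 were called higher and the other 7 were not called, among them Pdgfra with a change of 0.22 ± 0.16. Of 7 macrophage markers, 6 were called higher. The part of either in the changes of the WNT modulators was not tested.

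In obese mice 8 of the 9 members passed the test beside the tumor, 5 higher and 3 lower, in a comparison in which 26.8% of all genes were called higher and 27.7% lower. Wisp1, Dkk2, Sfrp4, Sfrp1 and Sfrp2 rose. Wif1, Sfrp5 and Dkk3 fell. The median log2 change was 0.85 over the members and -0.02 over all genes tested.

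Wisp1 (Ccn4, chr15:66891320-66923201) had the largest rise, 9.83-fold (log2 3.30 ± 0.53, adjusted p = 6.79e-05). Obese control IWAT held 1.07 to 3.72 CPM (median 1.53) and tumor-associated IWAT 3.87 CPM in mouse 3 to 55.5 CPM in mouse 0 (median 12.6). The groups did not overlap, and all 6 mice had more beside the tumor. The change was between 2.54 and 3.64 with any 1 library left out, and 2.51 (adjusted p = 0.000203) without libraries 0 and 4. In lean mice Wisp1 measured 2.55, 2.80, 1.84, 6.69 and 5.59 CPM in control and 5.76, 8.08, 3.67, 6.44 and 5.10 CPM in tumor-associated IWAT, higher beside the tumor in 3 of 5 mice. The tumor change differed between diets by 2.71 ± 0.74 (adjusted p = 0.0463); in this comparison 1 member was called higher and 1, Wif1, lower, where 2.58% and 2.34% of all genes were. This difference was lost in 16 of 22 fits without 1 library (adjusted p up to 0.0927) and was 2.28 (adjusted p = 0.0537) with the mouse as a block, 1.94 (adjusted p = 0.0848) without libraries 0 and 4, and 2.59 (adjusted p = 0.0598) without obese control libraries 1 and 3. Beside the tumor Wisp1 was higher in obese than in lean mice by 1.65 ± 0.51 (adjusted p = 0.0120), or by 0.90 (adjusted p = 0.0732) without obese library 0 and 0.87 (adjusted p = 0.110) without libraries 0 and 4. Wisp1 counts were low, 7 to 30 in obese control and 30 to 346 in obese tumor-associated libraries.

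Wif1 (WNT inhibitory factor, chr10:121033960-121100650) had the largest fall, 3.82-fold (log2 -1.93 ± 0.37, adjusted p = 0.000332). Obese control IWAT held 3.16 to 6.37 CPM (median 4.11) and tumor-associated IWAT 0.541 to 1.42 CPM (median 1.28). Every obese mouse had less beside the tumor, without overlap of the groups, and the call held with any 1 library left out. Lean libraries held 1.39, 3.32, 1.84, 5.28 and 2.88 CPM in control and 3.48, 1.09, 1.90, 5.53 and 2.16 CPM in tumor-associated IWAT, higher in 3 mice and lower in 2. The tumor change differed between diets by -1.90 ± 0.54 (adjusted p = 0.0474), a call lost in 19 of 22 fits without 1 library (adjusted p up to 0.0897), with the mouse as a block (-1.86, adjusted p = 0.0537) and without libraries 0 and 4 (-1.66, adjusted p = 0.102). Beside the tumor Wif1 was lower in obese than in lean mice by -1.33 ± 0.39 (adjusted p = 0.00830), with adjusted p = 0.0506 without lean library 6 and a difference of -1.08 (adjusted p = 0.0509) without obese libraries 0 and 4. These values rest on 4 to 11 counts per obese tumor-associated library.

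Dkk2 (chr3:132085292-132180304) rose 2.89-fold in obese mice (log2 1.53 ± 0.41, adjusted p = 0.00422). It measured 2.28 to 3.97 CPM (median 3.21) in control IWAT and 1.22 CPM in mouse 4 to 16.0 CPM in mouse 3 (median 10.3) beside the tumor. All mice but mouse 4 had more in the tumor-associated pad. Sfrp1 rose 1.90-fold (0.93 ± 0.27, adjusted p = 0.00757), from 18.8 to 28.9 CPM (median 21.97) in control to 23.5 to 63.2 CPM (median 46.0) beside the tumor, and was lower there in mice 2 and 4. The calls of both held with any 1 library left out. Sfrp2 rose 1.80-fold (0.85 ± 0.30, adjusted p = 0.0223), with all mice but mouse 4 higher. Sfrp4 rose 2.05-fold (1.04 ± 0.41, adjusted p = 0.0394), from 11.5 to 18.8 CPM (median 16.3) in control to 2.71 CPM in mouse 4 and 24.1 to 52.2 CPM in the others. With the mouse as a block the changes were 0.72 for Sfrp2 (adjusted p = 0.0995) and 0.76 for Sfrp4 (adjusted p = 0.146). Sfrp2 lost its call without obese control library 1 or tumor-associated library 0 or 1 (adjusted p up to 0.0596), and Sfrp4 in 8 of 22 such fits, each without an obese library (adjusted p up to 0.0969 without tumor-associated library 3). In a fit to the obese libraries alone neither was called (adjusted p = 0.0762 for Sfrp2 and 0.0857 for Sfrp4), nor without obese control libraries 1 and 3 (0.69, adjusted p = 0.0965, and 0.98, adjusted p = 0.0977). Without tumor-associated libraries 0 and 4 the changes were 0.98 for Sfrp2 (adjusted p = 0.000849) and 1.39 for Sfrp4 (adjusted p = 0.000862).

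Sfrp5 fell 2.58-fold in obese mice (log2 -1.37 ± 0.46, adjusted p = 0.0167) and was lower beside the tumor in 6 of 6 mice. The log2 change within a mouse ran from -0.26 in mouse 1 to -3.44 in mouse 4. The call held with any 1 library left out, but without libraries 0 and 4 the change was -0.96 (adjusted p = 0.0611). The lean and the obese change of Sfrp5 were not called different (-1.69 ± 0.74, adjusted p = 0.119), except without obese tumor-associated library 1 (adjusted p = 0.0482). Dkk3 fell 1.70-fold (-0.77 ± 0.24, adjusted p = 0.0104), was lower in 4 of 6 mice, and kept its call with any 1 library left out and without libraries 0 and 4 (-0.59, adjusted p = 0.0247). Wisp2 was higher beside the tumor in 5 of 6 mice but not called (0.66 ± 0.40, adjusted p = 0.168).

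**Figure D3:**
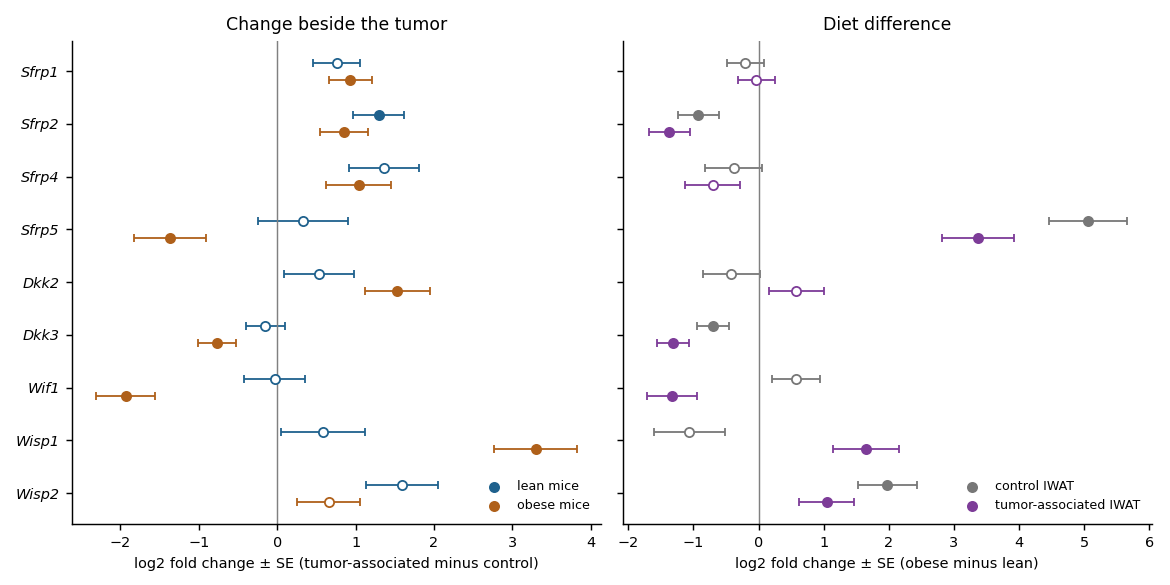
Log2 fold change with its standard error for each member, tumor-associated minus control IWAT within each diet (left) and obese minus lean within each pad (right), from edgeR; filled points passed an adjusted p of 0.05. In lean mice only Sfrp2 is filled (1.29), while in obese mice Wisp1 (3.30) and Wif1 (-1.93) lie at the ends.

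Markers of several cell types differed between the same obese pads. Of 8 adipocyte markers 7 were called lower beside the tumor, with sums of 1435 to 9460 CPM against 9832 to 17352 CPM in control IWAT. Of 10 fibroblast and progenitor markers 3 were called higher and 2 lower, with sums of 4327 to 15115 CPM against 4550 to 9462 CPM. All 7 macrophage and all 6 proliferation markers were called higher, and 6 of 8 tested mammary epithelium markers lower. Of 5 endothelium markers 4 were called lower, with sums of 245 to 922 CPM against 778 to 1066 CPM. In the diet comparison of control IWAT, in which Sfrp2 and Dkk3 were lower, the 10 fibroblast and progenitor markers had a median log2 difference of -0.02, and in that of tumor-associated IWAT 5 were called lower. The summed mammary epithelium markers were lower in obese mice in both pads, at 395 to 1018 CPM against 989 to 1740 in control and 192 to 517 against 969 to 1933 CPM in tumor-associated IWAT. Of the 8 tested, Epcam (-1.05) and Krt8 (-0.78) were called lower in control IWAT, and all 8 in tumor-associated IWAT. The library of mouse 4, lowest of its group for adipocyte and fibroblast markers, was also the lowest for 8 of the 9 members, all but Wisp1. The part of these differences in the changes of the WNT modulators was not tested.

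Within groups the members varied in parallel to different degrees. Over the 22 libraries, the deviations of log2 CPM from the group means had a Pearson r of 0.86 between Sfrp4 and Dkk2, 0.81 between Sfrp2 and Sfrp4 and 0.78 between Sfrp2 and Dkk3. Without obese tumor-associated library 4 these were 0.63, 0.28 and 0.39, so that 1 library carried much of them. Sfrp5 and Wisp2 (0.81), Sfrp4 and Sfrp5 (0.79) and Sfrp4 and Wisp2 (0.75) kept 0.74, 0.77 and 0.73 without it. The r of Wisp1 with the other members ran from -0.21 to 0.18 and that of Wif1 from -0.35 to 0.15. Without library 4 Wif1 had an r of -0.57 with Sfrp4, -0.56 with Sfrp1 and -0.54 with Wisp2, and Wisp1 of -0.41 with Sfrp4. These correlations are descriptive, since the points share libraries, mice and sequencing.

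Among all genes tested, those that deviated most like each member were, with r over the same 22 libraries, Svep1 (0.91), Chrdl1 (0.90) and Unc79 (0.90) for Sfrp5 and Zeb2 (0.91), Gabarap (0.91) and Pea15a (0.90) for Wisp2. For Sfrp4 they were Tmeff2 (0.96), Thbs3 (0.96) and Pla2r1 (0.95), for Sfrp2 Pdgfc (0.92), Ccdc8 (0.92) and Dchs1 (0.91), and for Sfrp1 Litaf (0.85), Npl (0.84) and Tmem45a (0.80). For Dkk2 they were Cryl1 (0.93), Pamr1 (0.92) and Fcgrt (0.91), and for Dkk3 they included Pcdhgb6 (0.90) and Nox4 (0.90). Wif1 had Kcnj15 (0.81), Acacb (0.76) and Gbe1 (0.76), and Wisp1 Pdia5 (0.79), Hs6st2 (0.77) and Kif26b (0.75). All these r values include obese tumor-associated library 4, which carried much of several member pairs above. They were not computed without it, so how far they rest on that library is not known.

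The rest of the WNT pathway was read from 6 lists. In lean mice none of their 63 tested genes was called by edgeR beside the tumor. At an unadjusted p under 0.05 there were 3 (Fzd10, Nov and Wnt2b), and DESeq2, which tested 85 of the listed genes, gave 5 at that level and none after adjustment. In obese mice 10 of 19 listed WNT ligands were tested, and 3 were called higher and 3 lower beside the tumor. The shares over all genes in this comparison, 26.8% called higher and 27.7% lower, are the background for this list and those that follow. Wnt7b and Wnt10b, both canonical ligands, rose by 1.81 ± 0.52 and 1.18 ± 0.35, and Wnt4 and Wnt5a fell by 1.59 ± 0.43 and 1.29 ± 0.27 on the log2 scale. Without libraries 0 and 4 the values were 0.73 for Wnt7b and 0.54 for Wnt10b, neither called (adjusted p = 0.207 and 0.186). Of 19 tested receptors and co-receptors 8 were called lower and none higher, among them Lgr6, a receptor for R-spondins (-1.85 ± 0.44), and the Frizzled receptor Fzd3 (-1.45 ± 0.31). Their median change was -0.46, against -0.02 over all genes.

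Of 18 genes of WNT secretion and the intracellular pathway, 2 were called higher and 8 lower in obese mice. Lef1, which is described with the diet comparison, was among the 8. Pygo2 and Axin1 rose by 0.41 ± 0.10 and 0.39 ± 0.13, and Pygo1 and Tcf7l1 fell by 0.95 ± 0.31 and 0.51 ± 0.17. Without libraries 0 and 4 Axin1 (0.17, adjusted p = 0.238) and Tcf7l1 (-0.38, adjusted p = 0.0521) were not called. Of 9 feedback and target genes 2 were called higher and 5 lower. Myc and Ccnd1, a transcription factor and a cyclin of dividing cells, rose by 2.37 ± 0.38 and 1.44 ± 0.32, while the WNT feedback inhibitors Nkd1 and Apcdd1 fell by 1.77 ± 0.36 and 1.29 ± 0.21. Nov (Ccn3), 1 of 3 other CCN genes tested, rose by 1.81 ± 0.39, and of 4 other secreted antagonists and agonists tested Sostdc1 was called lower.

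In control IWAT Wnt5b was the 1 ligand of 10 called, lower in obese mice (-1.14 ± 0.28). Over all genes 9.54% were called higher and 7.53% lower in this comparison, and the lower mammary epithelium markers given above moved with it; their part in the WNT genes was not tested. Of 19 receptors 2 were called higher, Fzd5 (0.72 ± 0.19) and Lrp6 (0.40 ± 0.10), and 4 lower, with Lgr6 (-1.78 ± 0.41) and Lgr5 (-1.61 ± 0.42) farthest. Among the intracellular genes 4 were called lower, with the beta-catenin partners Bcl9 (-0.84 ± 0.16) and Tcf7l2 (-0.80 ± 0.15) farthest, and 1 higher, Lef1. Lef1, named after its values were seen, measured 40.2 and 45.4 CPM in the lymphocyte-rich obese control libraries 1 and 3 and at most 1.31 CPM in the other 4, and it fell below the filter on low counts without those 2. Of the feedback and target genes Rnf43 (-1.19 ± 0.39) and Axin2 (-0.71 ± 0.24) were called lower. Without obese control libraries 1 and 3 Lgr5, Rnf43 and Axin2 were not called (adjusted p = 0.0566, 0.0784 and 0.0601). The CCN gene Cyr61 was called higher (1.31 ± 0.28).

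Beside the tumor, genes called lower in obese than in lean mice were 8 of 19 receptors, 10 of 18 intracellular genes, 4 of 10 ligands, 3 of 9 feedback and target genes and 3 of 4 other secreted modulators tested, where 22.4% of all genes were called lower and 24.7% higher. The genes called higher there were 2 ligands, Wnt9a and Wnt10b, with Pygo2 and Myc. Between the lean and the obese tumor change, Myc was the only gene of the 6 lists called different, larger in obese mice.

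**Figure D4:**
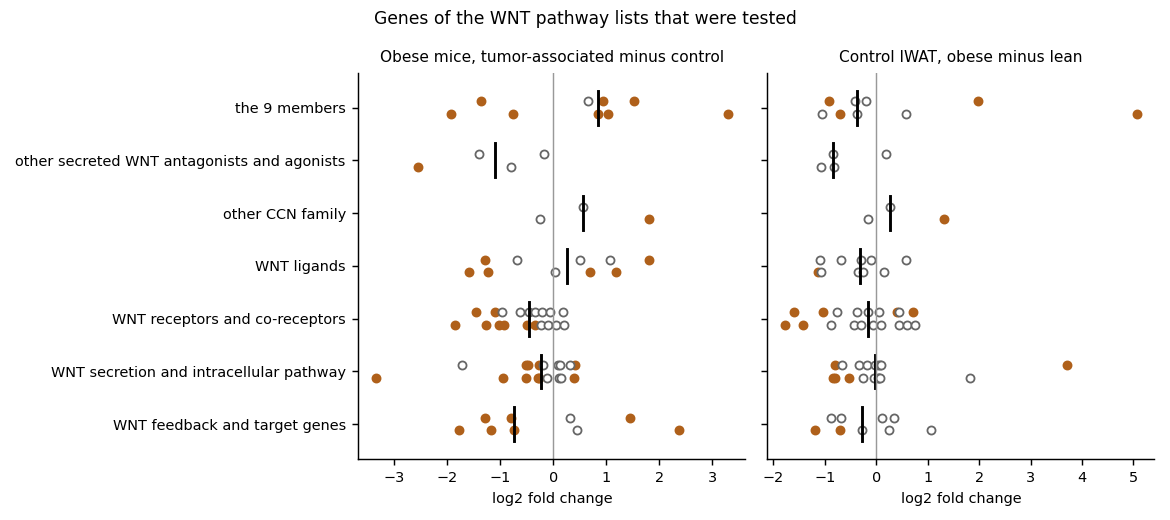
Log2 fold change of every tested gene of the 9 members and the 6 WNT lists in obese mice beside the tumor (left) and between diets in control IWAT (right); filled points passed an adjusted p of 0.05 and black bars are medians. On the left the median of the members is 0.85 and that of the receptors -0.46, and on the right Sfrp5 (5.07) is the farthest point.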

How the data were processed

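RNA was measured by sequencing of ribosomal RNA-depleted total RNA from 22 IWAT libraries of 11 mice. The authors trimmed the reads, mapped them to mm10 with STAR 2.4.0f per the labels and summarized them with HTSeq; the deposited values are raw counts by gene symbol, not normalized, and the annotation and strand setting are not given in the sources used here. The deposited table holds 23420 genes and 5 lines of totals that name no gene, which were left out: reads on no gene made up 38.5% to 48.8% and reads without a unique position 15.1% to 18.9% of the reads listed per library. No sample column was without a label. The total on genes had a median of 6953882 per library; the precision of genes at a few CPM is limited by counts as low as 4. No pair of libraries within a group was close enough to be a copy (the smallest chi-square over its degrees of freedom was 5.69).

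The counts were fitted with edgeR 4.0.16 in R 4.3.3 (TMM normalization, default filter by group, quasi-likelihood test, Benjamini-Hochberg adjustment, threshold 0.05) in 1 fit over the 4 groups without a block; standard errors are the log2 change divided by the square root of F. The 5 comparisons were the tumor change in lean and in obese mice, the diet difference in each pad, and the difference between the tumor changes of obese and lean mice. Both pads came from the same mice, and libraries with the same diet and number were taken as a pair. Deviations from group means correlated between the pads of such a pair with a median of 0.508 in lean (5 of 5 pairs over 0.1) and 0.168 in obese mice (4 of 6). The mouse as a block was an alternative, as were DESeq2 1.42.0, upper-quartile normalization, no filter, a minimum of 10 counts per library, separate fits of the groups compared, and each library left out. Leaving out obese tumor-associated libraries 0 and 4, or obese control libraries 1 and 3, was chosen after seeing the data. The fits were tested first on simulated counts drawn without a mouse effect, so that test does not bear on the pairing of the pads.

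Levels per length divide CPM by the exon length of the gene in GENCODE M21 (GRCm38), which gave all positions; it names Wisp1 and Wisp2 as Ccn4 and Ccn5. Log2 CPM used a prior count of 2. Upstream sequences are from RefSeq (GRCm38.p6). The members and gene lists were chosen with earlier results of these data known. All members are named; from each WNT list the 2 largest called rises and falls in obese tumor-associated IWAT and between diets in control IWAT with at least 10 counts in every library of the higher group are named, as are the 3 genes most alike per member, of which 1 is not reported here.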

Additional observations from a re-analysis of the deposited data

Results flagged for a closer look

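In 3 groups a single library stood apart from the others by Dixon's test. Wisp1 measured 55.5 CPM in obese tumor-associated library 0, against a median of 11.5 CPM in the other 5. Wisp1 measured 3.72 CPM in obese control library 2, against a median of 1.44 CPM in the others. Dkk3 measured 4.33 CPM in obese tumor-associated library 4, against a median of 13.8 CPM in the others. The test was applied to 36 groups, and chance alone singles out a library in about 1 in 20.

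In the main fit the tumor change of 2 members was called different between obese and lean mice, and both calls depended on the setting. The difference was 2.71 on the log2 scale for Wisp1 (edgeR adjusted p = 0.0463), which was higher beside the tumor in 6 of 6 obese and 3 of 5 lean mice. It was -1.90 for Wif1 (edgeR adjusted p = 0.0474), which was lower beside the tumor in 6 of 6 obese and 2 of 5 lean mice. Of the 22 fits that each dropped a single library, 16 put Wisp1 above the 0.05 threshold and 19 put Wif1 above it. Both were also above it with the mouse as a block (edgeR adjusted p = 0.0537 for each) and without a low-count filter. The same held without obese tumor-associated libraries 0 and 4. DESeq2 and upper-quartile normalization kept both calls. The Wif1 values rest on 4 to 11 counts per obese tumor-associated library.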

How the results depend on the processing

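The number of members called moved in every comparison under some setting. The share of all genes called is given for the main fit only. The counts below therefore show how member calls moved, not whether members moved more than other genes. Beside the tumor of lean mice 1 member was called, 3 with DESeq2, 3 in the groups compared alone, 3 without obese tumor-associated libraries 0 and 4, and 0 to 3 with 1 library left out. In obese mice 8 were called, 6 in the groups compared alone, 6 without obese control libraries 1 and 3, 7 without tumor-associated libraries 0 and 4, and 6 to 8 with 1 library left out; with at least 10 counts in every library 5 of 6 tested members were called, and the 3 not tested were called without that filter. Between diets in control IWAT 4 were called, 2 without a filter, 2 without obese control libraries 1 and 3, and 2 to 4 with 1 library left out. In tumor-associated IWAT 6 were called, 4 without libraries 0 and 4, 3 of 6 tested with at least 10 counts in every library, and 4 to 7 with 1 library left out. For the obese minus lean change 2 were called, 0 without a filter, 0 without libraries 0 and 4, 1 without obese control libraries 1 and 3, and 0 to 3 with 1 library left out; at least 10 counts in every library gave 0 because neither of the 2, Wisp1 and Wif1, could be tested. With the mouse as replicate block 1, 6 and 0 members were called for the lean, the obese and the obese minus lean change, and no call changed beyond those given in the report.

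Changes of sign were seen among small changes that were called in neither fit. With 1 library left out, the lean change of Wif1 ran from -0.43 to 0.28 and that of Sfrp5 from -0.31 to 0.57, the diet difference of Sfrp1 beside the tumor from -0.21 to 0.26, and the obese minus lean change of Sfrp1 from -0.005 to 0.46. Without libraries 0 and 4 the obese minus lean change of Sfrp4 was 0.045. The cause of these moves was not tested.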
